A study of Homo sapiens with 9 samples.

Results

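The miR-130, miR-301 and miR-454 family was followed through the activation of Jurkat cells by small RNA sequencing. Its 8 members are hsa-miR-130a-3p, hsa-miR-130b-3p, hsa-miR-130b-5p, hsa-miR-301a-3p, hsa-miR-301a-5p, hsa-miR-301b-3p, hsa-miR-454-3p and hsa-miR-454-5p (written without the prefix from here on), and they were chosen by their mature names. They occupy 8 of the 2883 rows of the deposited count table, 1 row each. Of these, 7 had counts above 0 and passed the filter on low counts, as did 701 rows of the whole table. miR-301a-5p had 0 counts in every library.

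Jurkat clone E6-1 is a human T lymphoblast line, a clone derived from a T cell leukaemia and widely used to study T cell receptor signalling. The cells were sampled unstimulated (0 h) and at 5 h and 12 h of stimulation by anti-CD3 bound to the plate (10 µg/mL) together with anti-CD28 in the medium (5 µg/mL). Each time had 3 biological replicates, 9 libraries in all. No unstimulated cells were taken at 5 h or 12 h, so stimulation cannot be told apart from time in culture and handling.

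MicroRNAs guide Argonaute proteins to messenger RNAs that pair with the seed, bases 2 to 8 of the mature strand, and lower the stability or translation of those messengers. The family is known for repressing PPARG, a nuclear receptor. In T cells transformed by HTLV-1, miR-130b represses TP53INP1, a stress-induced proapoptotic protein. Each hairpin precursor can give a 5p and a 3p strand, of which the family's known activity rests on the 3p strand.

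The mature 3p strands are printed first because the shared seed, in capitals, is what joins them into a family; they run 5′ to 3′ and come from RefSeq on GRCh38.p14, which held 7 of the 8 members (all but miR-130a-3p).
miR-130b-3p: cAGUGCAAugaugaaagggcau
miR-301b-3p: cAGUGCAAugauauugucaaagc
miR-301a-3p: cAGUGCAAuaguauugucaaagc
miR-454-3p: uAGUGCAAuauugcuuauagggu

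Counted from base 1 at the 5′ end, miR-301a-3p and miR-301b-3p were identical at 21 of 23 bases (91.3%) and differed by A10G and G11A, with the base of miR-301a-3p written first. miR-130b-3p shared its first 12 bases with miR-301b-3p and its first 9 with miR-301a-3p, and the strands differed beyond those. miR-454-3p differed from the other printed strands at base 1 (C1U). How reads that fit both miR-301 strands were assigned is not given in the sources used here, so their separate counts are uncertain to that extent. Among the 2370 mature human entries of that table, where miR-130a-3p could not be counted, the same seed was present in 6 (0.253%): these 4 strands, miR-3666 and miR-4295.

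The 5p strands of the family carry different seeds, again in capitals, and share none with the 3p strands.
miR-130b-5p: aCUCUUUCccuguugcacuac
miR-301a-5p: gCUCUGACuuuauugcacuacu
miR-454-5p: aCCCUAUCaauauugucucugc

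The genes lie at 3 loci, given on GRCh38 with GENCODE 29. MIR301B (chr22:21652981-21653058, plus strand) and MIR130B (chr22:21653304-21653385, plus strand) are 245 bases apart inside the noncoding gene AP000553.1. MIR301B is intronic in its transcript, and MIR130B overlaps an exon. MIR454 (chr17:59137758-59137872, minus strand) and MIR301A (chr17:59151136-59151221, minus strand) are 13263 bases apart. Both are intronic in all 10 transcripts that span them of SKA2, a gene for a kinetochore protein that lies on the same strand. MIR130A (chr11:57641198-57641286, plus strand) is intronic in both spanning transcripts of the noncoding gene AP000662.1.

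Table totals were 6631839 to 16207031 counts per library, and the shallowest libraries were replicate 3 at 0 h and replicate 3 at 12 h. Levels are counts per 1000000 after TMM scaling (CPM), and 3 counts were worth 0.176 to 0.471 CPM, less in deeper libraries. All 5 T lymphoid and blood marker miRNAs were present, with summed levels of 43281 to 48667 CPM at 0 h, 44022 to 45764 CPM at 5 h and 45236 to 59583 CPM at 12 h. The 12 markers of other cell types summed to 268 to 343 CPM at 0 h, 312 to 409 CPM at 5 h and 331 to 380 CPM at 12 h. Of these, miR-1-3p and miR-133a-3p of muscle and miR-124-3p of neurons had 0 counts in every library, while the myeloid miR-223-3p averaged 134 CPM and the epithelial miR-200c-3p 103 CPM. Whether these reads came from other cells was not tested, nor was any part of such RNA in the family's values.

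The family was dominated at every time by a strand from each of its clustered loci. miR-130b-3p averaged 5439 ± 463 CPM (SD, n = 9 libraries) and ranked 22 of the 1098 mature miRNAs above 0. miR-454-3p averaged 4294 ± 369 CPM and ranked 24. miR-301a-3p, from the same SKA2 introns as miR-454-3p, averaged 165 ± 25.7 CPM and ranked 104. The remaining 3p strands were far lower, at 19.7 ± 2.74 CPM for miR-301b-3p and 11.1 ± 3.54 CPM for miR-130a-3p.

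Within a library, miR-130b-3p was above miR-454-3p in 9 of 9 libraries, by 1.27-fold on the means, although their ranges over libraries overlapped. miR-454-3p exceeded miR-301a-3p by 26.0-fold and miR-301a-3p exceeded miR-301b-3p by 8.38-fold, each in 9 of 9 libraries with no overlap. miR-301b-3p and miR-130b-5p (17.2 ± 6.65 CPM) did not differ beyond their spread: the means lay 2.52 CPM apart and miR-301b-3p was the higher in 5 of 9 libraries. miR-130b-5p averaged 6.15 CPM above miR-130a-3p and was the higher in 8 of 9 libraries, although their ranges over libraries overlapped. miR-454-5p was lowest among the members detected, at 0.783 ± 1.13 CPM. The mature strands printed here are 21 to 23 bases long, so no length scaling was applied, and any difference in ligation between sequences was not tested.

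**Figure D1:**
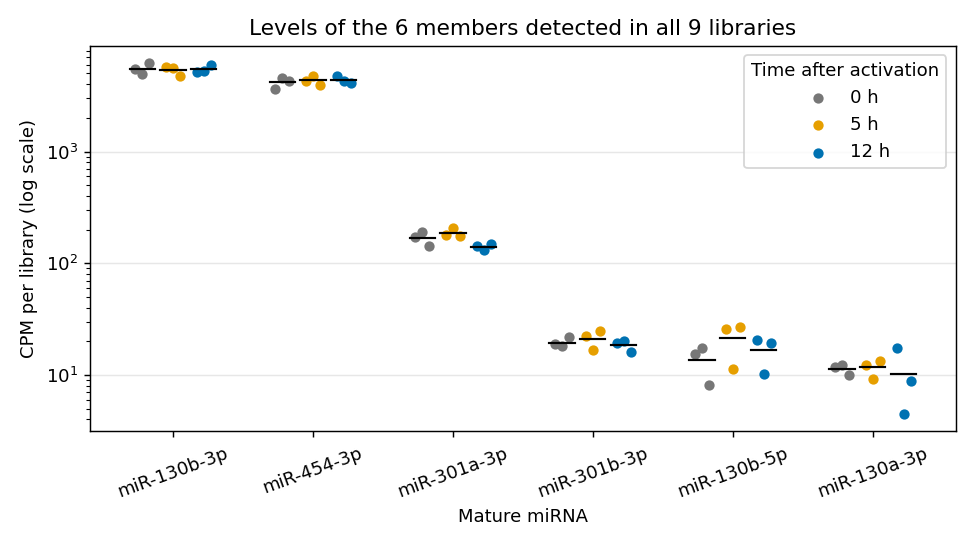
Level in each library (points, CPM on a log axis) of the 6 members detected in all 9 libraries, at 0 h, 5 h and 12 h from left to right within each member, with the mean of 3 libraries as a bar. miR-130b-3p and miR-454-3p sit near 5439 and 4294 CPM, miR-301a-3p near 165 CPM, and the other 3 members below 30 CPM at all times.

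The 5 3p strands of the family together made up a steady part of the miRNA counts. With each mature miRNA counted 1 time, they held 1.51 ± 0.0357% of the counts before stimulation (SD, n = 3 libraries, as for the later times), 1.57 ± 0.0990% at 5 h and 1.56 ± 0.0735% at 12 h. Over the 9 libraries it ranged between 1.45% and 1.65%, and the groups overlapped. Within the family, miR-130b-3p supplied 54.8 ± 3.08% of the 3p counts and miR-454-3p 43.3 ± 3.00% (SD, n = 9). The share of miR-301a-3p was 1.67 ± 0.271%, of miR-301b-3p 0.200 ± 0.0355% and of miR-130a-3p 0.112 ± 0.0379%.

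No member passed the threshold between times. Each pair of times was compared by edgeR's quasi-likelihood test, with Benjamini-Hochberg adjustment over all 701 tested rows and a threshold of 0.05. At 5 h against 0 h, 0 of 7 tested members were called, and 1.57% of all tested rows. At 12 h against 0 h the count was 0 of 7, beside 1.43% of all rows, and at 12 h against 5 h it was 0 of 7, beside 0.571%. A test for any difference among the 3 times likewise called 0 of 7, beside 1.71%. DESeq2 and limma-voom also called 0 members in each pair. Of all 701 rows, DESeq2 called 12 at 5 h against 0 h, 13 at 12 h against 0 h and 4 at 12 h against 5 h. In the same order, limma-voom called 10, 11 and 5. At an unadjusted p under 0.05, edgeR's test gave 0 members at 5 h against 0 h, 1 at 12 h against 0 h (miR-454-5p) and 1 at 12 h against 5 h (miR-301a-3p), beside 5.99%, 7.28% and 6.13% of all rows.

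The median log2 change over the tested members was 0.06 at 5 h over 0 h, beside 0.03 over all tested rows. It was -0.07 at 12 h over 0 h, beside 0.01, and -0.19 at 12 h over 5 h, beside -0.03. These comparisons share libraries and are given side by side only. Groups did not overlap for miR-454-5p at 5 h against 0 h and at 12 h against 0 h, 1 of 7 members each, beside 10.8% and 12.1% of all rows. That strand passed the filter through its 0 h libraries alone, so nothing is read from these counts. At 12 h against 5 h they did not overlap for miR-301a-3p, 1 of 7 members, beside 12.8% of all rows.

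**Figure D2:**
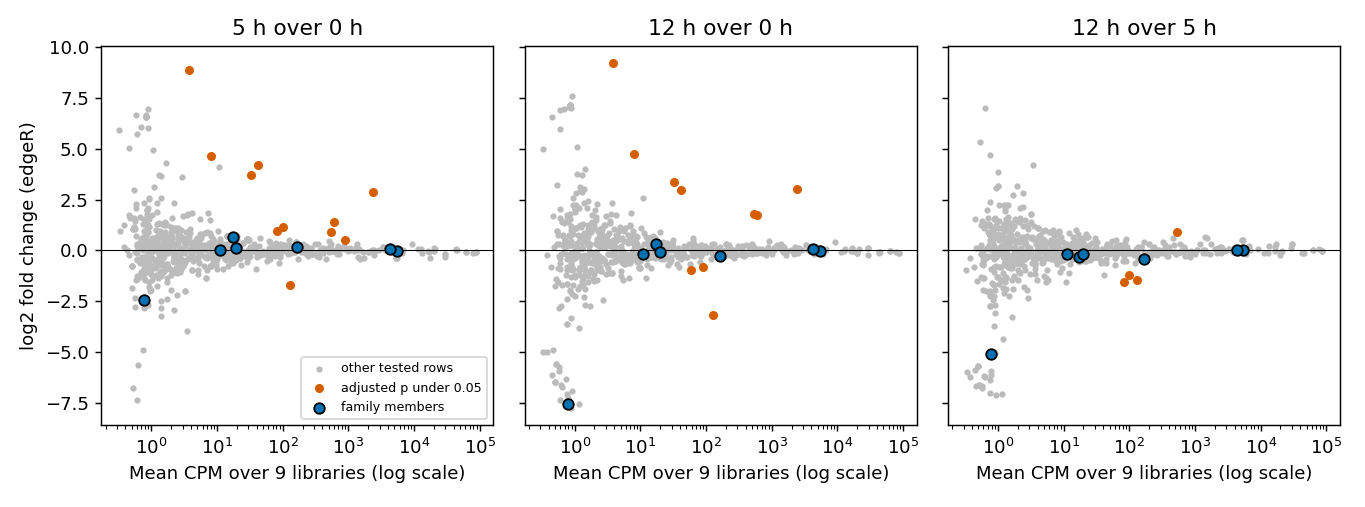
Log2 fold change from edgeR (vertical axis) against mean level over 9 libraries (CPM, log axis) for all 701 tested rows in each pair of times, with family members in blue and rows with an adjusted p under 0.05 in orange. No member is orange in any panel; the low blue point at 0.783 CPM is miR-454-5p, whose fitted change depends on the prior count.

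miR-130b-3p, the most abundant member, had 5493, 4949.8 and 6149.6 CPM at 0 h, 5691, 5610.0 and 4749.6 CPM at 5 h, and 5109, 5258 and 5944 CPM at 12 h. The 3 times overlapped throughout, and the highest values at 0 h and at 12 h came from the shallowest libraries. Over the 3 libraries of each time, means ± SD were 5531 ± 601, 5350.3 ± 522 and 5437 ± 445 CPM. Its log2 change was -0.05 at 5 h over 0 h (SE 0.11, 95% interval -0.29 to 0.19, edgeR adjusted p = 0.996). At 12 h over 0 h it was -0.02 (SE 0.11, 95% interval -0.27 to 0.22, edgeR adjusted p = 0.992). Between the later times, 12 h over 5 h, it was 0.02 (95% interval -0.22 to 0.26, edgeR adjusted p = 1). With 37876 to 85422 counts per library, counting error was small: libraries of the same time varied by 9.68%, against 0.402% from counting alone.

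miR-454-3p had 3648, 4591 and 4291 CPM at 0 h, 4311, 4785 and 3957 CPM at 5 h, and 4726, 4252 and 4088.5 CPM at 12 h. Its lowest library was replicate 1 of 0 h and its highest replicate 2 of 5 h, and the groups overlapped. Over the 3 libraries of each time, means ± SD were 4177 ± 482, 4351 ± 416 and 4356 ± 331 CPM. The log2 change was 0.06 both at 5 h over 0 h (95% interval -0.18 to 0.30, edgeR adjusted p = 0.996) and at 12 h over 0 h (95% interval -0.18 to 0.30, edgeR adjusted p = 0.986). The change at 12 h over 5 h was 0.00 (95% interval -0.24 to 0.24, edgeR adjusted p = 1).

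Among the 118 mature miRNAs of at least 100 CPM, the pattern over the 9 libraries most like that of miR-130b-3p belonged to miR-183-5p, miR-421 and miR-191-5p. The measure was the root mean square difference of log2 CPM after centring each miRNA on its own mean, and it was 0.0541, 0.0739 and 0.0895 for these, beside a median of 0.212 over all 118. For miR-454-3p the nearest were miR-196a-5p at 0.0790, let-7i-5p at 0.0885 and miR-17-5p at 0.0974, beside a median of 0.200. The abundant family strands were not near each other on this measure: their difference was 0.171, and miR-454-3p ranked 40 of 118 for miR-130b-3p. The log2 CPM of miR-130b-3p itself had an SD of 0.123 over the 9 libraries, and that of miR-454-3p 0.126. A miRNA that did not vary at all would lie at nearly these distances from them. All these values share libraries and scaling factors, and they are given as a description.

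miR-301a-3p, which differs from miR-454-3p at base 1 and beyond the seed, had groups that did not overlap at 12 h against 5 h. That was 1 of 7 tested members, beside 12.8% of all rows, so nothing particular to this strand is read from it. miR-301a-3p had 171, 191 and 142 CPM at 0 h, 179.5, 208 and 174 CPM at 5 h, and 141, 132 and 149.9 CPM at 12 h. All 3 libraries at 12 h were below all 3 at 5 h, and both times overlapped the 0 h libraries, whose lowest was the shallow replicate 3. At 12 h its mean was 141 ± 8.91 CPM, against 187 ± 18.4 CPM at 5 h and 168 ± 24.6 CPM at 0 h (SD, n = 3 each). The log2 change at 12 h over 5 h was -0.41, or 0.754-fold (SE 0.16, 95% interval -0.74 to -0.07). Its unadjusted p in edgeR was 0.0194 and the adjusted p 0.720, so it did not pass. At 12 h over 0 h the log2 change was -0.25 (SE 0.16, 95% interval -0.59 to 0.08, edgeR adjusted p = 0.848), and at 5 h over 0 h it was 0.16 (SE 0.16, 95% interval -0.18 to 0.49, edgeR adjusted p = 0.996).

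The ratio of miR-454-3p to miR-301a-3p, both from SKA2 introns, needs no scaling between libraries. It reuses the miR-301a-3p counts given above, so it is not an independent result. Its values were 21.3, 24.1 and 30.3 at 0 h, 24.0, 23.0 and 22.8 at 5 h, and 33.5, 32.2 and 27.3 at 12 h. The 12 h values were all above the 5 h values, and 1 library at 0 h (replicate 3, among the shallowest) lay between the 12 h ones. The mean ratio was 31.0 ± 3.26 at 12 h, against 23.3 ± 0.662 at 5 h and 25.2 ± 4.57 at 0 h (SD, n = 3 each). On the log2 scale the ratio differed by 0.41 at 12 h over 5 h (exact two-sided permutation p = 0.1, the smallest that 3 against 3 libraries allow). Adjusted over the 15 ratio tests by Benjamini-Hochberg, that exact p was 0.375; 3 of the 15, on the miR-301a arms, hold no information on the arms because the 5p count was always 0. The differences were 0.31 at 12 h over 0 h (exact permutation p = 0.2) and -0.10 at 5 h over 0 h (exact permutation p = 0.7).

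**Figure D3:**
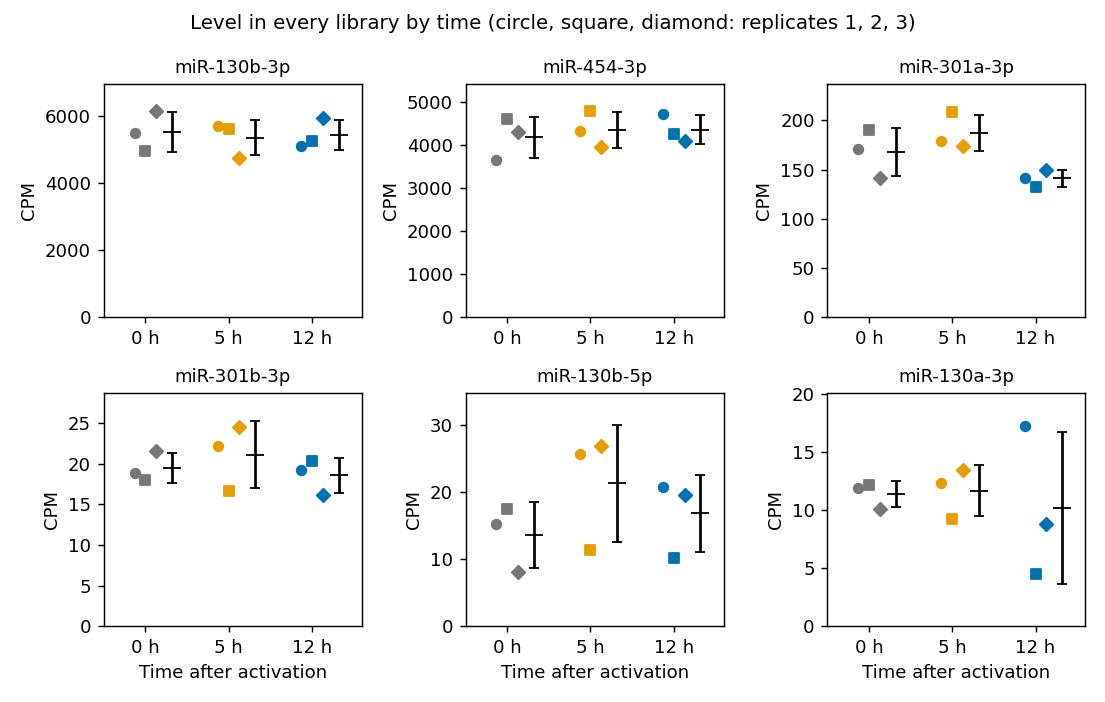
Level in every library (CPM, linear axes starting at 0) of 6 members by time after activation, with replicates 1, 2 and 3 as circle, square and diamond and the mean ± SD of 3 libraries in black. The miR-301a-3p libraries at 12 h (132 to 149.9 CPM) lie below those at 5 h (173.7 to 208 CPM), while in the other 5 panels the times overlap. Of all tested rows, 12.8% had no overlap between these 2 times.

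miR-301b-3p, whose gene neighbours MIR130B, had 18.8, 18.0 and 21.6 CPM at 0 h, 22.2, 16.6 and 24.6 CPM at 5 h, and 19.2, 20.3 and 16.2 CPM at 12 h. The times overlapped, and no library stood far from the rest. The log2 change was 0.12 at 5 h over 0 h (SE 0.30, 95% interval -0.50 to 0.74, edgeR adjusted p = 0.996). At 12 h over 0 h it was -0.07 (95% interval -0.69 to 0.55, edgeR adjusted p = 0.992). Its ratio to miR-130b-3p, the neighbouring strand, averaged 0.00401 ± 0.00111 at 5 h, against 0.00353 ± 0.000108 at 0 h (SD, n = 3 each; exact permutation p = 0.7). At 12 h the ratio was 0.00345 ± 0.000634 (exact permutation p = 1 against 0 h), and the strand from MIR301B stayed far below the one from MIR130B in every library.

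miR-130a-3p, known from endothelial cells for repressing the homeobox genes MEOX2 and HOXA5, had 11.9, 12.2 and 10.1 CPM at 0 h, 12.3, 9.24 and 13.4 CPM at 5 h, and 17.3, 4.47 and 8.79 CPM at 12 h. The 12 h libraries held both the highest and the lowest value of the 9. The log2 change was 0.04 at 5 h over 0 h (SE 0.44, 95% interval -0.90 to 0.97, edgeR adjusted p = 0.996). The change at 12 h over 0 h was -0.16 (SE 0.45, 95% interval -1.10 to 0.78, edgeR adjusted p = 0.991). It turned to 0.18 when replicate 2 of 12 h was left out. Libraries of the same time varied by 36.3%, against 8.66% from counting.

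**Figure D4:**
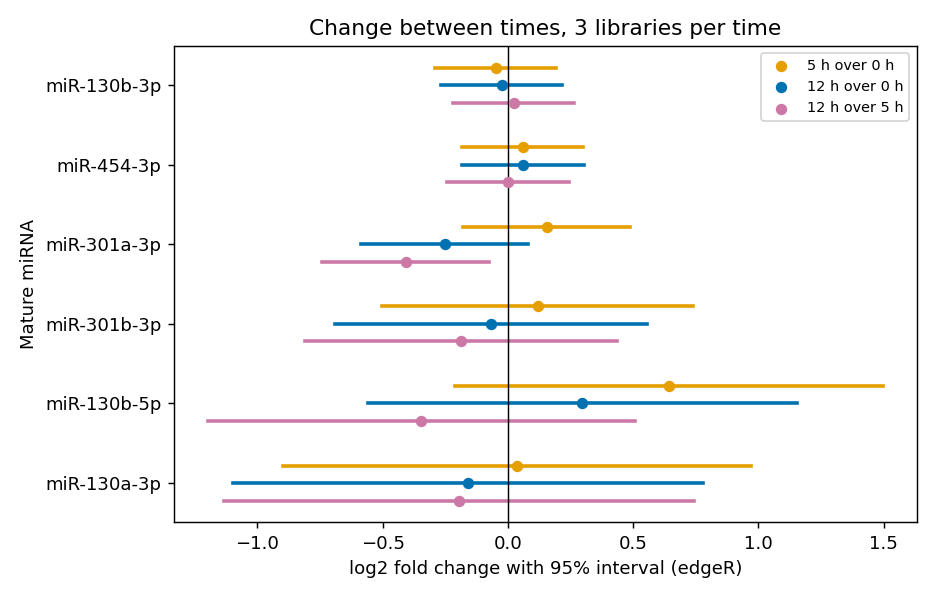
Log2 fold change from edgeR (points) with a 95% interval derived from its F statistic (lines), for the 6 members detected in all libraries. The comparisons are 5 h over 0 h, 12 h over 0 h and 12 h over 5 h. The interval of miR-301a-3p at 12 h over 5 h (-0.74 to -0.07) is the one that leaves out 0, before adjustment, and intervals widen toward the members of low count.

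The 5p strands were rare beside their 3p partners. The hairpins of the 3 precursors whose strands are both annotated in RefSeq among the members are printed with both arms in capitals to show which strand each count refers to; the first arm is 5p and the second 3p.
MIR130B: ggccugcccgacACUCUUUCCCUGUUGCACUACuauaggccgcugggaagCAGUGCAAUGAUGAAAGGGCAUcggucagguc
MIR301A: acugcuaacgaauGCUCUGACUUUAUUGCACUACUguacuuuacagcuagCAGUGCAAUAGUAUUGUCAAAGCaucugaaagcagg
MIR454: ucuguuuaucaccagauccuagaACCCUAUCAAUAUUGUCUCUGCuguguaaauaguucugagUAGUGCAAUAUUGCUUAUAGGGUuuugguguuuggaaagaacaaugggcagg

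Summed over the 9 libraries, MIR130B gave 1883 counts of its 5p and 555711 of its 3p strand, a 5p share of 0.338%. MIR454 gave 93 counts of 5p and 444918 of 3p, a share of 0.0209%. MIR301A gave 0 counts of 5p and 17409 of 3p, so its 3p strand was at least 5803-fold higher with 3 counts as the limit, and the 5p share could be up to 0.0172%. From MIR130A, 0 counts of miR-130a-5p stood beside 1201 of 3p, which allows a 5p share of up to 0.250%. MIR301B gave 101 counts of miR-301b-5p and 2091 of its 3p strand, a pooled share of 4.61% that rests on the later times, since 0 counts of 5p stood beside 671 of 3p at 0 h. Such limits reflect counting error alone, because amplified reads lacking molecular identifiers need not be separate molecules.

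miR-130b-5p had 15.2, 17.4 and 8.07 CPM at 0 h, 25.7, 11.3 and 26.9 CPM at 5 h, and 20.7, 10.2 and 19.5 CPM at 12 h. The times overlapped: replicate 2 was low at both 5 h and 12 h, and the shallow replicate 3 was low at 0 h. The mean was 21.3 ± 8.67 CPM at 5 h, against 13.6 ± 4.89 CPM at 0 h (SD, n = 3 each), a log2 change of 0.64 (SE 0.41, 95% interval -0.21 to 1.496, edgeR adjusted p = 0.850). At 12 h the mean was 16.8 ± 5.73 CPM, a log2 change over 0 h of 0.30 (SE 0.41, 95% interval -0.56 to 1.15, edgeR adjusted p = 0.974). The 5p share of MIR130B spanned 0.131% to 0.563% of the 2 strands across libraries. The log2 ratio of 3p to 5p differed by -0.66 at 5 h over 0 h (exact permutation p = 0.4) and by -0.33 at 12 h over 0 h (exact permutation p = 0.6). Without replicate 3 of 0 h the first of these was -0.25 and the log2 change of miR-130b-5p at 5 h over 0 h was 0.38.

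miR-454-5p had 54, 15 and 9 counts at 0 h, 5, 0 and 10 counts at 5 h, and 0 counts in all 3 libraries at 12 h. In CPM this was 3.47, 1.15 and 1.37 at 0 h, 0.467, 0 and 0.587 at 5 h, and 0 at 12 h, so each later library lay below every 0 h library. It passed the filter on low counts through the 0 h libraries alone, so a lower value later was a condition of its being tested. The 0 h mean of 1.997 ± 1.28 CPM (SD, n = 3) was 21.0-fold a floor of 3 counts over the 12 h group (0.0949 CPM). That floor reflects counting error alone and sets no lower bound on a change. Libraries of the same time varied by 97.4% for this strand, against 31.1% from counting. The ratio to the floor was 12.1-fold without replicate 1 of 12 h, 13.2-fold without replicate 2 of 12 h and 13.3-fold without replicate 1 of 0 h. It was 25.5-fold at most when another library was left out. At 12 h against 0 h its unadjusted p was 0.0202 and its adjusted p 0.638 in edgeR, 0.0733 in DESeq2 and 0.146 in limma-voom. At 5 h against 0 h the adjusted p was 0.996 in edgeR. Its 3p partner did not separate by time, as given above. The log2 ratio of 3p to 5p at 12 h over 0 h gave an exact permutation p of 0.1 (0.375 adjusted). The size of that difference was set by the 0.5 added to counts of 0. Because of the filter condition, no conclusion on a fall with time is drawn from these tests.

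miR-301b-5p, the partner of miR-301b-3p and no member by name, showed a different pattern of scattered counts. It had 2, 0 and 58 counts at 5 h, 0, 9 and 32 counts at 12 h, and 0 counts in all 3 libraries at 0 h. At each later time 1 library was at 0, so the groups touched, and the row did not pass the filter and was not tested. The library with 58 counts, replicate 3 of 5 h, was the deepest, held the highest miR-130b-5p level and also the highest level of the liver marker miR-122-5p (66.8 CPM). Per 1000000 counts, however, miR-301b-5p was highest in replicate 3 of 12 h, the shallowest library, at 5.02 CPM beside 5.96 CPM of miR-122-5p, against 3.40 CPM in replicate 3 of 5 h. Whether RNA of other cells had any part in these values was not tested.

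**Figure D5:**
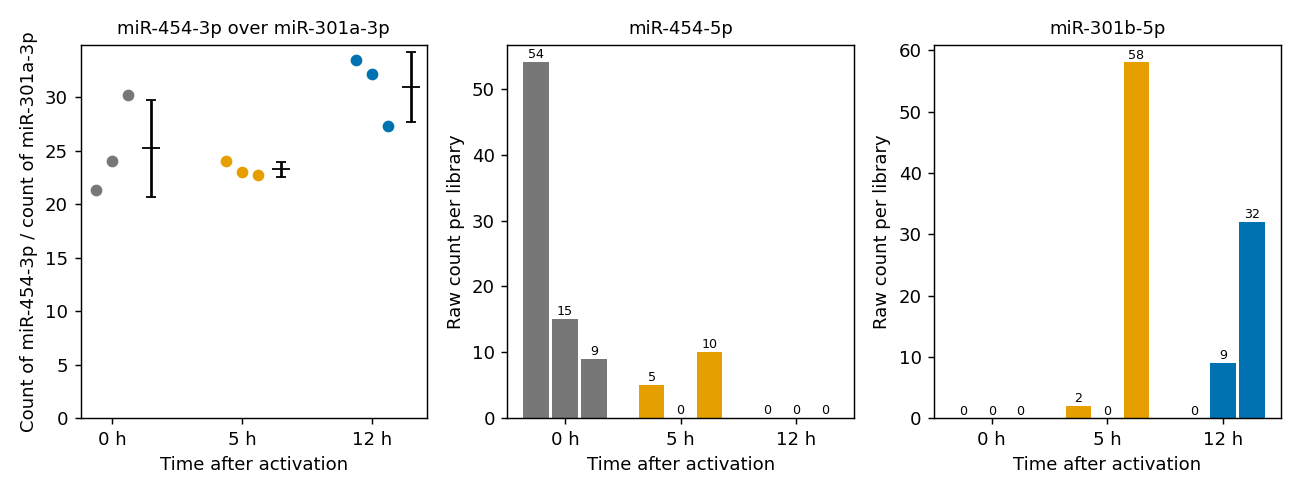
Left, count of miR-454-3p over count of miR-301a-3p in each library (points) with mean ± SD of 3 libraries by time; middle and right, raw counts of miR-454-5p and miR-301b-5p in each library (bars, replicates 1 to 3 at each time). The ratio is 27.3 to 33.5 at 12 h and 22.8 to 24.0 at 5 h, miR-454-5p has 0 counts at 12 h, and miR-301b-5p has 0 counts at 0 h.

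Other human miRNAs share the seed in whole or in part. miR-3666 and miR-4295, which carry the same 7 bases, had 0 counts in every library, which allows up to 0.0288 CPM each over all 9. The miR-19 strands and the miR-148 and miR-152 strands hold 6 of those 7 bases at a shifted place, in capitals here, so their own seeds differ from that of the family.
miR-19a-3p: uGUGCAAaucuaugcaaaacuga
miR-148a-3p: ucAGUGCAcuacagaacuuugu

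The 5 listed miRNAs with such a shifted seed were miR-19a-3p, miR-19b-3p, miR-148a-3p, miR-148b-3p and miR-152-3p, and other mature entries were not searched for one. All 5 were tested, and 0 of 5 were called in each pair of times, beside 1.57%, 1.43% and 0.571% of all rows. miR-19a-3p, of the proliferation-linked miR-17-92 cluster, averaged 449 ± 17.5 CPM at 12 h, against 372 ± 15.2 CPM at 0 h (SD, n = 3 each; log2 change 0.27, edgeR adjusted p = 0.661). miR-19b-3p had 2 tested rows, 1 for each precursor. For the larger, mir-19b-2, the means were 546 ± 64.0 CPM at 12 h and 451 ± 17.8 CPM at 0 h (SD, n = 3 each). Its log2 change was 0.28 (edgeR adjusted p = 0.661). The mir-19b-1 row averaged 70.8 CPM over the 9 libraries, with a log2 change of 0.19 at 12 h over 0 h (edgeR adjusted p = 0.974). miR-148a-3p was far lower, at 37.0 ± 9.57 CPM at 12 h and 43.3 ± 11.1 CPM at 0 h. The summed level of these 5 miRNAs, with the mir-19b-2 row alone for miR-19b-3p, was 862 to 928 CPM at 0 h. It was 870 to 1006 CPM at 5 h and 999 to 1125 CPM at 12 h, with 5 h overlapping both other times. The members together had 9362 to 10624 CPM at 0 h, 8945 to 10640.2 CPM at 5 h and 9677 to 10227 CPM at 12 h.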

How the data were processed

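Small RNA of 9 Jurkat libraries was analysed. Library kits (RealSeq) and column extraction are per the labels' protocols; build GRCh38.p13 and DESeq2 are per the submitters' processing notes, while the sources used here name no aligner, counting tool or handling of multiply matching reads. The authors deposited raw counts per precursor and mature miRNA, and log2 normalised values for the 430 rows above 0 in all libraries, which were used in an alternative only. Of 1214 rows above 0, 701 passed filterByExpr (minimum count 10, minimum total 15) and held 99.99% of counts. TMM-scaled counts were fitted in edgeR 4.0.16 (R 4.3.3) with 1 mean per time over 9 libraries. Alternatives included DESeq2 1.42.0 and limma 3.58.1. Ratios within libraries had 0.5 added to each count and were compared by exact permutation. Every member is named; the members and the lists (seeds, markers) were chosen with earlier results of these data known. No replicate pair was a duplicate (chi-square over degrees of freedom 83.6 or more). How the biological replicates were kept apart is not stated, so p-values measure the spread between these samples. Figures used Python 3.11.15 and matplotlib 3.10.9.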

Additional observations from a re-analysis of the deposited data

How the results depend on the processing

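No member was called in any of 21 settings, beside 3 to 21 called rows of the whole table per setting and test. The lowest adjusted p was 0.0733 (miR-454-5p, 12 h over 0 h, DESeq2). That strand passed the filter through its 0 h libraries alone, so no conclusion is drawn from this value. Of 413 alternative log2 changes of members, 381 kept direction and call and 32 changed sign, none of which was called; the causes were not tested. miR-301a-3p at 12 h over 5 h ranged between -0.47 and -0.30 and kept its sign in 20 of 20. With library totals, miR-130b-3p had 0.0113 (5 h over 0 h) and 0.0212 (12 h over 0 h), and miR-454-3p -0.0032 (12 h over 5 h). The stricter filter (10 CPM in 3 libraries) gave -0.0332 for miR-130a-3p and -0.0091 for miR-454-3p (5 h over 0 h). The deposited log2 values gave -0.0062 for miR-130a-3p (5 h over 0 h); neither holds miR-454-5p. Without the 2 shallowest libraries, 5 h over 0 h was -0.0375 for miR-130a-3p and 0.0344 for miR-130b-3p, 12 h over 0 h was -0.0863 for miR-130b-5p and 0.0891 for miR-301b-3p, and 12 h over 5 h was -0.0560 for miR-130b-3p.

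Leaving out each library in turn, log2 changes at 5 h over 0 h ranged between -0.116 and 0.127 for miR-130a-3p, -0.161 and 0.0336 for miR-130b-3p, -0.0388 and 0.213 for miR-301b-3p, and -0.0685 and 0.0942 for miR-454-3p. At 12 h over 0 h they were -0.834 to 0.181, -0.144 to 0.0637, -0.168 to 0.0154 and -0.0413 to 0.0869 in the same order. At 12 h over 5 h they were -0.854 to 0.161 for miR-130a-3p, -0.0686 to 0.0858 for miR-130b-3p and -0.0851 to 0.106 for miR-454-3p. Log2 ratios ranged between -0.215 and 0.0372 for miR-454-3p over miR-301a-3p (5 h over 0 h), -0.635 and 0.0805 for the miR-130b arms (12 h over 0 h) and -0.188 and 0.569 for the miR-301a arms (5 h over 0 h); the last follows only the unscaled 3p count, as its 5p count was always 0, and says nothing of the arms. At 5 h over 0 h, miR-130b-5p ranged between 0.379 and 0.892 and the miR-130b arms between -1.105 and -0.250, with no change of sign. For miR-301b-3p over miR-130b-3p they were -0.0535 to 0.347 (5 h over 0 h), -0.142 to 0.110 (12 h over 0 h) and -0.398 to 0.00274 (12 h over 5 h). The 3p share was 0.965% at 0 h, 1.01% at 5 h and 1.00% at 12 h with every row of the table in the total, since repeated precursor rows enlarge it.

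Whether replicate numbers pair the libraries could not be settled from their correlations. Same-number correlations were -0.179 to 0.255, over 0.1 in 4 of 9 pairs, beside -0.415 to 0.474 for other numbers. Of the 9 libraries, 4 correlated best with their own number. With the replicate block, 0 members were called and miR-130a-3p had -0.00040 at 5 h over 0 h. Calls over all rows were then 13 (5 h over 0 h), 11 (12 h over 0 h) and 11 (12 h over 5 h), beside 11, 10 and 4 without it. For any difference among the times they were 21 with the block and 12 without it. For the rare strands counting error was 6.56% to 31.1% of the level, but libraries of the same time varied by 2.22 to 5.57 times that error, so the spread between libraries was the larger limit.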
